A study of Bos taurus with 12 samples.

Results

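Endotoxin sensing in the mammary gland (MG) was described by 10 genes: the receptor genes TLR4 and TLR2, the co-receptor genes CD14 and LY96, the adaptor genes MYD88, TIRAP, TICAM1 and TICAM2, and the kinase genes IRAK1 and IRAK4. They were chosen by symbol, and a probe was assigned to a gene when its RefSeq accession matched the bovine RefSeq table. This gave 20 probes of 43653, and 10 genes of the 12639 that could be named. Their expression was read from Agilent bovine arrays (one color, Cy3) of MG biopsies from 12 multiparous Holstein cows in early lactation (24 ± 3 days in milk), with 1 array per cow. The CONT group (n = 6) kept the lactation diet, and the REST group (n = 6) received for 4 days that ration diluted with barley straw (48% of dry matter). On day 3, all cows of both groups were infused with 50 µg of lipopolysaccharide (LPS) in 1 healthy rear gland of the udder, and the biopsy followed 24 h later. All 12 arrays therefore hold LPS-challenged tissue, and the comparison is of diet after challenge, not of challenged with unchallenged MG.

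LPS is the endotoxin of Gram-negative bacteria such as the coliforms that cause mastitis. LPS-binding protein (LBP) hands it to CD14, which passes it to the complex of TLR4 with the small secreted protein encoded by LY96. TLR4 then signals along 2 routes. At the cell surface, TIRAP brings in MYD88, which assembles the kinases IRAK4 and IRAK1 and leads to NF-κB and inflammatory cytokines. From the endosome, TICAM2 brings in TICAM1 (TRIF), which leads to IRF3 and interferon-type genes. TLR2 recognizes bacterial lipoproteins, mainly of Gram-positive bacteria, and also signals through TIRAP and MYD88. In the udder these genes are used by milk and tissue leukocytes and by the epithelium that lines the alveoli and ducts.

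A level is a probe's log2 intensity minus that of the 75th percentile on its array, so that 0 marks this percentile. The 75th percentile itself was at an intensity of 577.1 to 1184 in CONT and of 386.9 to 1082 in REST, and 57.57 to 75.99% and 63.15 to 78.14% of probes, respectively, were well above background. Pairs of arrays correlated across probes with r between 0.9323 and 0.9841. The arrays lay on 3 slides of 4, with 3 CONT and 1 REST cows on slide 1, 1 CONT and 3 REST cows on slide 2, and 2 cows of each group on slide 3. The median signal of the negative controls was 7.066 to 17.3 on slide 1, 3.484 to 4.958 on slide 2 and 3.444 to 4.979 on slide 3. It was highest for CONT cow 1024 (17.3) and REST cow 0078 (15.82). The part of this in the differences of dim probes was not tested. Markers of lactating MG were present. The milk protein genes CSN3 and LALBA had mean levels of 9.21 and 8.94 in CONT, and KRT18 of the luminal epithelium 3.11. Leukocyte genes were present as well, with CONT means of 1.00 for PTPRC (all leukocytes), 2.79 for S100A8 (neutrophils), 2.50 for CSF1R and 0.58 for CD68 (monocytes and macrophages), and all these probes were above background on all 12 arrays.

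None of the 10 genes passed the threshold between REST and CONT in limma with Benjamini-Hochberg adjustment over all probes (adjusted p = 0.9999 for each of the 20 probes). The same test called 0 of the 43653 probes (0%), and the lowest adjusted p of any probe was 0.777. At an unadjusted p under 0.05, limma gave 0 of the 10 genes on their brightest probe, beside 334 of 12639 named genes (2.64%). Over all their probes it gave 2 of 20, both of TLR2 and both lower in REST, beside 1143 of 43653 probes (2.62%) in either direction and 382 (0.875%) lower in REST. The values of the groups overlapped for all 20 probes, and for all but 55 of the 43653 (0.126%). A total of 7 of the 10 genes had a higher mean in REST, against 46.1% of all probes, and the median log2 difference was 0.17 over the 10 genes and -0.02 over all probes. Without the 4 arrays of slide 2, an alternative added after the values were seen, 4 of the 10 were higher and the median was -0.05. The median was 0.053 without CONT cow 8027, 0.034 with normexp background correction and 0.057 with slide as a block. With the block, 6 of the 10 genes were higher in REST, beside 25407 of 43653 probes. The blocked median over all probes was 0.048, close to that of the 10 genes. With the next brightest probe for TLR2, 6 of the 10 were higher and the median was 0.023. In a tissue biopsy, fewer cells that express a gene and less RNA per cell cannot be told apart.

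**Figure D1:**
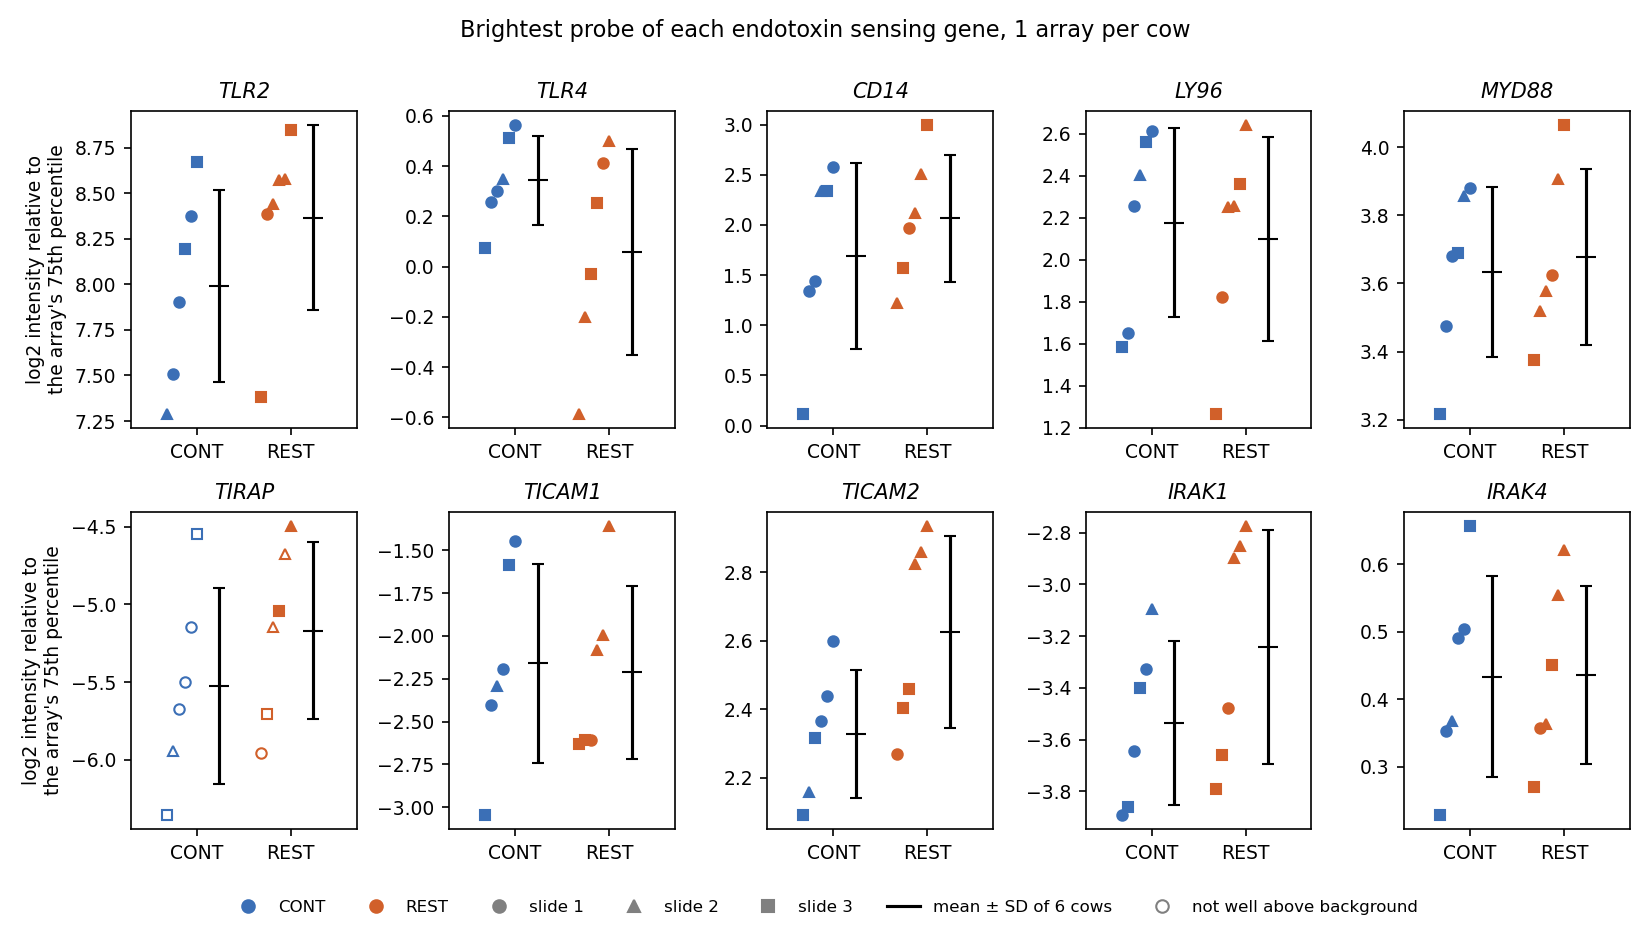
Level of the brightest probe of each gene (log2 intensity relative to the array's 75th percentile, 1 scale per panel) in the 6 CONT and 6 REST cows. Symbols give the slide, open symbols a probe not well above background, and bars the mean ± SD. The groups overlap in all 10 panels, and for TICAM2 and IRAK1 the 3 highest REST cows are those of slide 2.

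For the receptor TLR4, the brightest probe had levels of 0.08, 0.33 and 0.56 in CONT (lowest, median and highest of 6 cows) and of -0.59, 0.11 and 0.50 in REST. The REST range was wider, and 3 REST cows lay below all CONT cows, yet 2 REST cows were above the CONT mean. The log2 difference was -0.28 (SE 0.20, 95% interval -0.71 to 0.14), with an unadjusted p of 0.170 in limma and an exact permutation p of 0.149 (two-sided). The other two probes of TLR4 did not repeat the lower mean, with differences of -0.004 (SE 0.20) and 0.11 (SE 0.19). Over the 12 cows the brightest probe gave r = 0.75 with the first of these (permutation p = 0.00464, rho = 0.57). This was 0.41 without REST cows 0049 and 1015. With the second it gave r = 0.03 (permutation p = 0.920, rho = -0.09). On slide 1, slide 2 and slide 3 the brightest probe differed by 0.04, -0.45 and -0.18. Without slide 2 its difference was -0.13 (SE 0.21), and without REST cow 0049, -0.16 (SE 0.17). The smallest exact p that 6 cows against 6 allow is 0.00216.

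CD14, which delivers LPS to the receptor, had the largest spread among cows of the 10 brightest probes. Its brightest probe had levels of 0.12, 1.89 and 2.57 in CONT and of 1.23, 2.04 and 3.00 in REST. The lowest value was CONT cow 8027 and the highest REST cow 1058, both on slide 3, and the remaining cows of both groups lay between. The difference was 0.37 (SE 0.42, 95% interval -0.54 to 1.29, exact permutation p = 0.455), and without CONT cow 8027 it was 0.06. The other CD14 probe differed by 0.34 (SE 0.36), and the pair of probes ranked the cows alike (r = 0.97, permutation p = 1e-05, the smallest that 100000 resamples give, and rho = 0.92, permutation p = 7e-05). Within slides CD14 differed by 0.18, -0.39 and 1.06. Without slide 2 its difference was 0.62 (SE 0.58), and without REST cow 1058, 0.19 (SE 0.42).

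LY96, the partner that makes TLR4 able to bind LPS, had levels of 1.59, 2.33 and 2.61 in CONT and of 1.27, 2.25 and 2.64 in REST. The groups covered nearly the same range. The difference was -0.08 (SE 0.27, 95% interval -0.65 to 0.50, exact permutation p = 0.764). It was lower in REST on each of the slides (-0.35, -0.02 and -0.26), the only brightest probe with 1 direction on all 3. The difference was -0.21 (SE 0.28) with slide as a block and without slide 2, -0.32 (SE 0.36), whereas without REST cow 1018 it was 0.09 (SE 0.24).

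TLR2 was covered by 4 probes, which differed in direction. The brightest, called probe 1, had levels of 7.29, 8.05 and 8.67 in CONT and of 7.38, 8.50 and 8.85 in REST, a difference of 0.38 (SE 0.29, 95% interval -0.25 to 1.00, exact permutation p = 0.221). Its CONT mean of 7.99 was nearer to those of the milk protein genes CSN3 and LALBA than to that of probe 2, which was 2.38. The other 3 probes had lower means in REST. Probe 2 had levels of 1.54, 2.45 and 3.09 in CONT and of 0.79, 1.61 and 2.40 in REST, and 5 of 6 REST cows were below the CONT mean. Its difference was -0.75 (SE 0.30, 95% interval -1.40 to -0.10), 1.68-fold lower, with an unadjusted p of 0.0263 and an exact permutation p of 0.0325. Probe 4 had levels of -3.56, -3.28 and -1.89 in CONT and of -4.36, -3.54 and -3.27 in REST, with 6 of 6 REST cows below the CONT mean. It differed by -0.71 (SE 0.32, 95% interval -1.40 to -0.02, unadjusted p = 0.0449, exact permutation p = 0.0693). Probe 3 differed by -0.53 (SE 0.27, unadjusted p = 0.0755, exact permutation p = 0.0952).

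Probes 2, 3 and 4 of TLR2 also varied together from cow to cow. Over the 12 cows their pairwise r was 0.83 to 0.95 (Spearman's rho 0.83 to 0.94; permutation p at most 0.00072, adjusted p over 15 pairs at most 0.0027), and without the 2 cows farthest from the median 0.62 to 0.90. Within CONT r was 0.79 to 0.97 and within REST 0.72 to 0.90, so that the agreement did not rest on the group means. Probe 1 ran against them, with r of -0.54 to -0.62 (permutation p = 0.0327 to 0.0697, adjusted p = 0.0702 to 0.1045, rho -0.41 to -0.48). The largest differences of probes 2 to 4 lay on slide 2. There the 3 REST cows lay below the single CONT cow, with differences of -1.32 for probe 2, -1.31 for probe 3 and -1.54 for probe 4. On slide 1 the differences were -0.17, 0.10 and -0.43, and on slide 3 -0.15, 0.03 and 0.14, so that of these only probe 2 was lower in REST on every slide. With slide as a block, the limma estimate was -0.51 (SE 0.30, limma p = 0.118, not exact) for probe 2 and -0.53 (SE 0.35, limma p = 0.156) for probe 4. Without slide 2, probe 2 differed by -0.31 (SE 0.35), probe 3 by -0.09 (SE 0.32) and probe 4 by -0.22 (SE 0.38). Probe 1 differed by 0.45, 1.24 and -0.32 on slides 1, 2 and 3, by 0.38 (SE 0.33) with slide as a block, as without it, and by 0.07 (SE 0.38) without slide 2. The files do not pair these probes with transcript variants. Whether probe 1 measures the same TLR2 transcripts as the other three was not tested, and neither was the reason for the opposite directions, so the values given for TLR2 by its brightest probe hold for probe 1 alone.

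**Figure D2:**
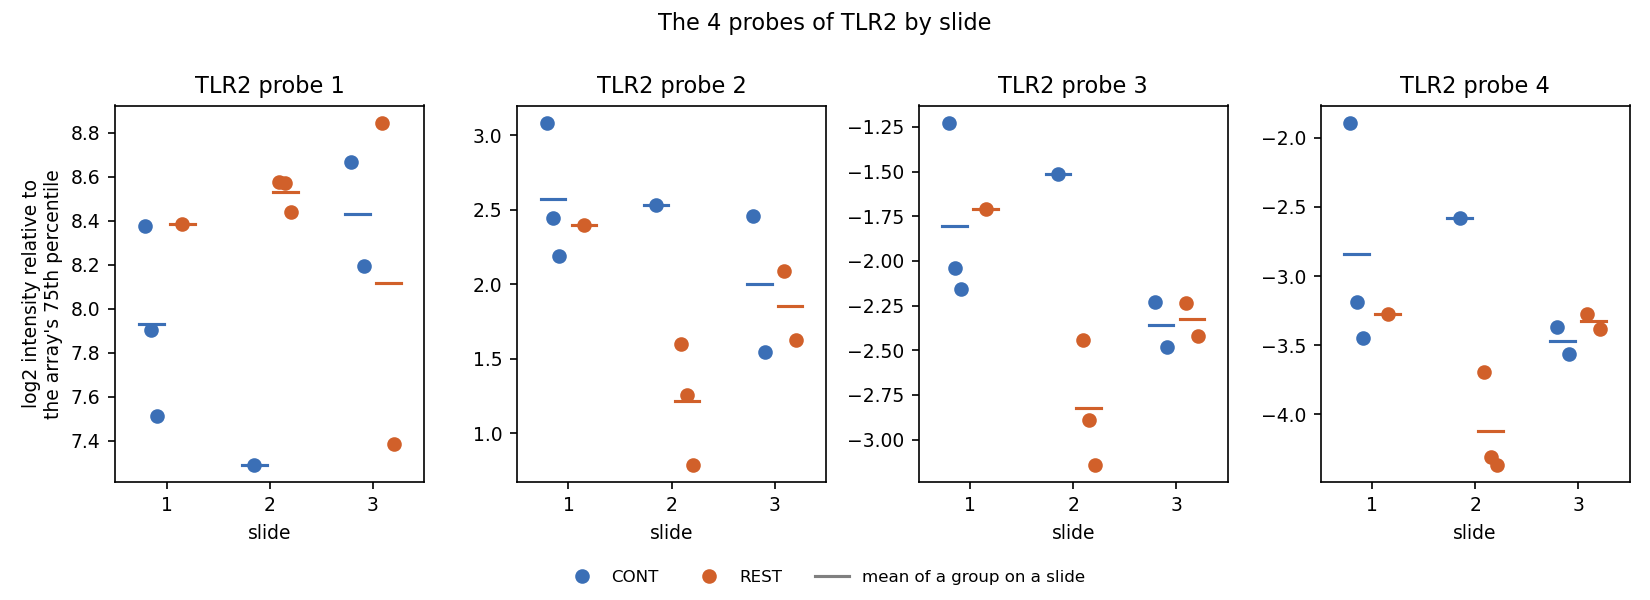
Level of the 4 TLR2 probes (log2 intensity relative to the array's 75th percentile) in each cow by slide, with the mean of each group on a slide as a line. On slide 2 the 3 REST cows lie above the single CONT cow for probe 1 and below it for probes 2, 3 and 4, and on slides 1 and 3 the groups lie close together for probes 3 and 4 apart from 1 high CONT cow.

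MYD88, the adaptor shared by TLR2 and TLR4, had nearly equal means. Its brightest probe had levels of 3.22, 3.68 and 3.88 in CONT and of 3.37, 3.60 and 4.07 in REST, a difference of 0.04 (SE 0.17, 95% interval -0.32 to 0.41, exact permutation p = 0.768). The other two probes were higher in REST by 0.26 (SE 0.20) and 0.35 (SE 0.24), with 5 of 6 REST cows above the CONT mean for each. Without slide 2 they differed by 0.21 (SE 0.27) and 0.004 (SE 0.24), and without REST cow 0049 by 0.17 (SE 0.20) and 0.20 (SE 0.22). Over the 12 cows the brightest probe gave r = 0.55 (permutation p = 0.0638) and 0.24 (permutation p = 0.450) with them. TIRAP, which links the receptors to MYD88, was not well above background on any CONT array and was so on 2 REST arrays. Its measured means were -5.53 ± 0.63 in CONT and -5.17 ± 0.57 in REST (SD, n = 6), and no fold is given because the lower bound did not exceed 1.

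The adaptors of the TRIF route had means that differed in direction. TICAM2 had levels of 2.09, 2.34 and 2.60 in CONT and of 2.27, 2.64 and 2.94 in REST. A total of 5 of 6 REST cows were above the CONT mean, and 3 were above all CONT cows. The difference was 0.30 (SE 0.16, 95% interval -0.06 to 0.65), with an unadjusted p of 0.0928, the lowest of the 10 brightest probes, and an exact permutation p of 0.0628. These 3 cows were the REST cows of slide 2, where the difference was 0.72, against -0.20 on slide 1 and 0.23 on slide 3. Without slide 2 the difference was 0.02. The other TICAM2 probe differed by 0.23 (SE 0.29), and the pair of probes did not rank the cows alike (r = -0.16, permutation p = 0.627). TICAM1 had levels of -3.04, -2.24 and -1.45 in CONT and of -2.63, -2.34 and -1.36 in REST. Its groups were mixed, with a difference of -0.05 (SE 0.30, 95% interval -0.70 to 0.60, exact permutation p = 0.877) and differences of -0.59, 0.48 and -0.30 on the 3 slides. It differed by -0.15 (SE 0.32) with slide as a block and by -0.48 (SE 0.37) without slide 2.

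Of the kinases that MYD88 assembles, IRAK1 had levels of -3.89, -3.52 and -3.10 in CONT and of -3.79, -3.19 and -2.77 in REST. Again the 3 REST cows of slide 2 were above all CONT cows, and the CONT cow of that slide was the highest of its group. The difference was 0.29 (SE 0.23, 95% interval -0.20 to 0.79, exact permutation p = 0.214), 0.08 (SE 0.17) with slide as a block and -0.02 without slide 2. IRAK4, the first kinase of the relay, had the smallest spread of the 10. Its levels were 0.23, 0.43 and 0.66 in CONT and 0.27, 0.41 and 0.62 in REST, a difference of 0.00 (SE 0.13, 95% interval -0.28 to 0.29, exact permutation p = 0.976). The other IRAK4 probe differed by -0.06 (SE 0.175), and the pair of probes did not rank the cows alike (r = -0.37, permutation p = 0.231, rho = -0.31). These intervals show what 6 cows per group could resolve. The half-width of the 95% interval was 0.283 for IRAK4 and 0.915 for CD14, the narrowest and the widest of the 10 on the log2 scale.

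**Figure D3:**
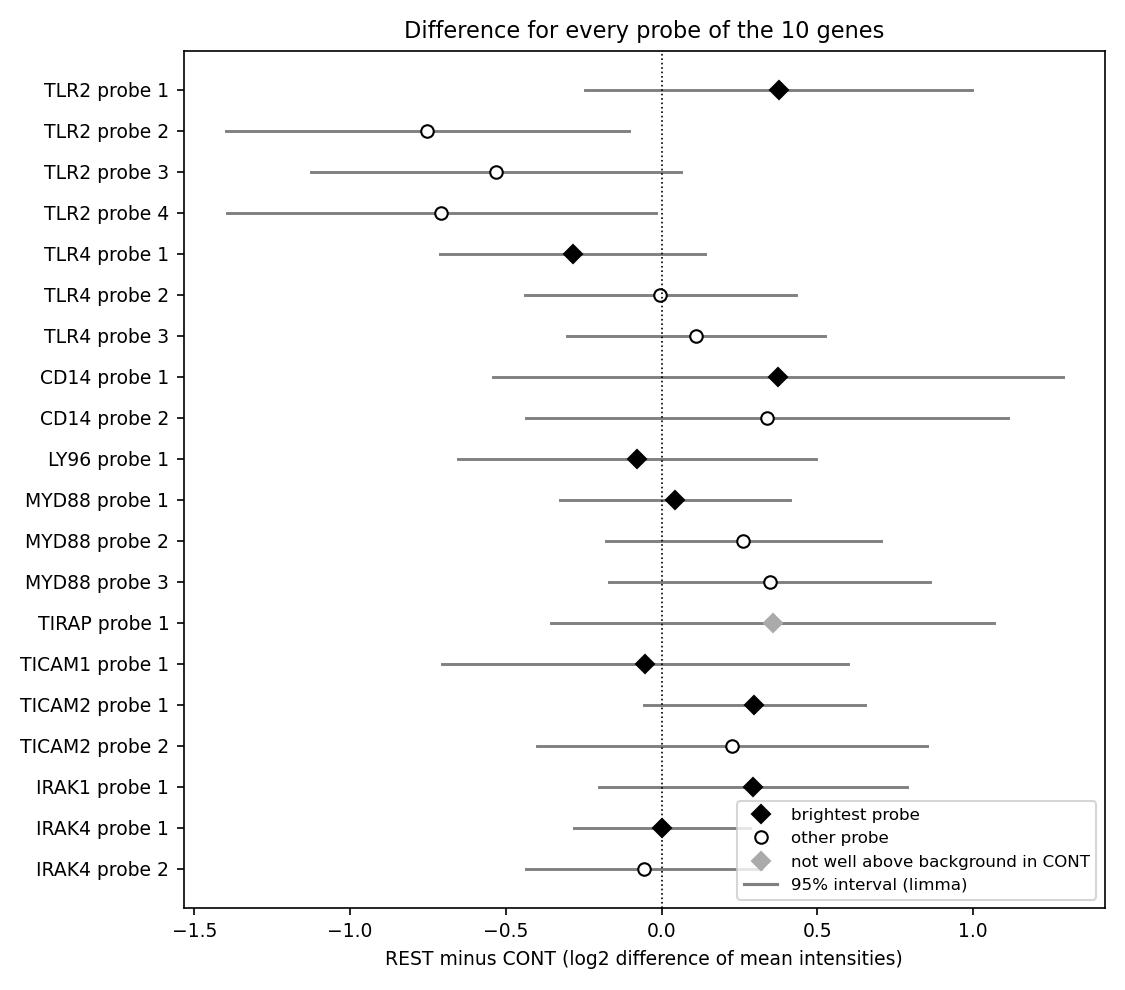
REST minus CONT difference (log2) of all 20 probes of the 10 genes with its 95% interval from limma; filled diamonds are the brightest probe of a gene and the gray one is TIRAP, not well above background in CONT. The intervals of TLR2 probes 2 and 4 lie below 0 and the other 18 hold 0, before any adjustment.

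Of the 6 genes with several probes, CD14, MYD88 and TICAM2 had probes that all pointed in 1 direction, and TLR2, TLR4 and IRAK4 did not. For TICAM2 this rested on CONT cow 1024, without which the other TICAM2 probe differed by -0.0055. For MYD88 it rested on CONT cow 8027 and REST cows 1058 and 7043, without each of which the brightest probe differed by -0.039, -0.033 and -0.0014, and only the CD14 probes kept 1 direction whichever cow was left out. Counting by cow over the 9 genes above background in both groups, 2 to 7 genes lay above the CONT mean in CONT cows and 2 to 9 in REST cows. REST cow 7043 (slide 2) was above it for all 9, and REST cow 1018 (slide 3) for 2.

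Across the 12 cows, 15 relations were computed among the brightest probes and with the mean level of 19 myeloid markers (neutrophils, monocytes and macrophages), and none passed an adjusted p of 0.05 (lowest 0.206). Relations of a gene's other probes with other genes or with the myeloid mean were not computed. CD14 followed its partner LY96 with r = 0.61 (permutation p = 0.0324, adjusted p = 0.206) and rho = 0.57 (p = 0.0589, adjusted p = 0.275). The r was 0.87 in CONT (exact permutation p = 0.00972) and 0.42 in REST (exact permutation p = 0.407), 0.71 over residuals from group and slide, and 0.49 without REST cow 1018 and CONT cow 8027. For TLR4 the r was -0.14 with LY96 (permutation p = 0.662, rho = -0.32) and 0.02 with CD14 (permutation p = 0.941, rho = -0.10). The last value joined opposite signs, with r = -0.64 in CONT (exact permutation p = 0.154) and 0.70 in REST (exact permutation p = 0.119), and the difference between the groups was not tested.

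The myeloid mean was -0.05 to 1.07 in CONT cows and -0.60 to 1.60 in REST cows. CD14, a monocyte surface protein, gave r = 0.51 with it (permutation p = 0.0873, adjusted p = 0.206, and rho = 0.58, p = 0.0516, adjusted p = 0.275), and 0.27 without REST cows 0049 and 1058, the lowest and the highest of the mean. TLR4 gave r = 0.52 (permutation p = 0.0816, and rho = 0.22, p = 0.484) and 0.22 without these cows, so that the relation rested on them. TIRAP gave r = -0.61 (permutation p = 0.0353, adjusted p = 0.206, and rho = -0.64, p = 0.0296, adjusted p = 0.275) and -0.55 without them, from values mostly not well above background. TLR2 (probe 1) ran the other way with r = -0.53 (permutation p = 0.0792, adjusted p = 0.206, and rho = -0.46, p = 0.132) and -0.31 without them, and so did TICAM2 with r = -0.50 (permutation p = 0.0959, and rho = -0.45, p = 0.139) and -0.37. Of the other 5 genes, MYD88 gave r = 0.48, TICAM1 -0.49, IRAK1 -0.32, LY96 -0.10 and IRAK4 -0.004. Within the groups, r with the myeloid mean was 0.62 in CONT and -0.82 in REST for IRAK1 (exact permutation p = 0.192 and 0.0403, unadjusted) and 0.07 and -0.90 for TICAM1 (exact permutation p = 0.872 and 0.0181). It was -0.04 and 0.84 for TLR4 (exact permutation p = 0.925 and 0.0389), 0.27 and -0.27 for LY96 and 0.15 and -0.11 for IRAK4, so that the pooled r of these genes joined opposite signs. For CD14 it was 0.35 and 0.73, for TIRAP -0.55 and -0.84, for TLR2 -0.75 and -0.60, for MYD88 0.38 and 0.55 and for TICAM2 -0.54 and -0.78. These differences between CONT and REST were not tested. Over residuals from group and slide, r was -0.73 for TLR2, -0.67 for TICAM2, 0.58 for CD14, 0.66 for TLR4 and -0.68 for TIRAP, and each slide holds too few cows for an r of its own.

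**Figure D4:**
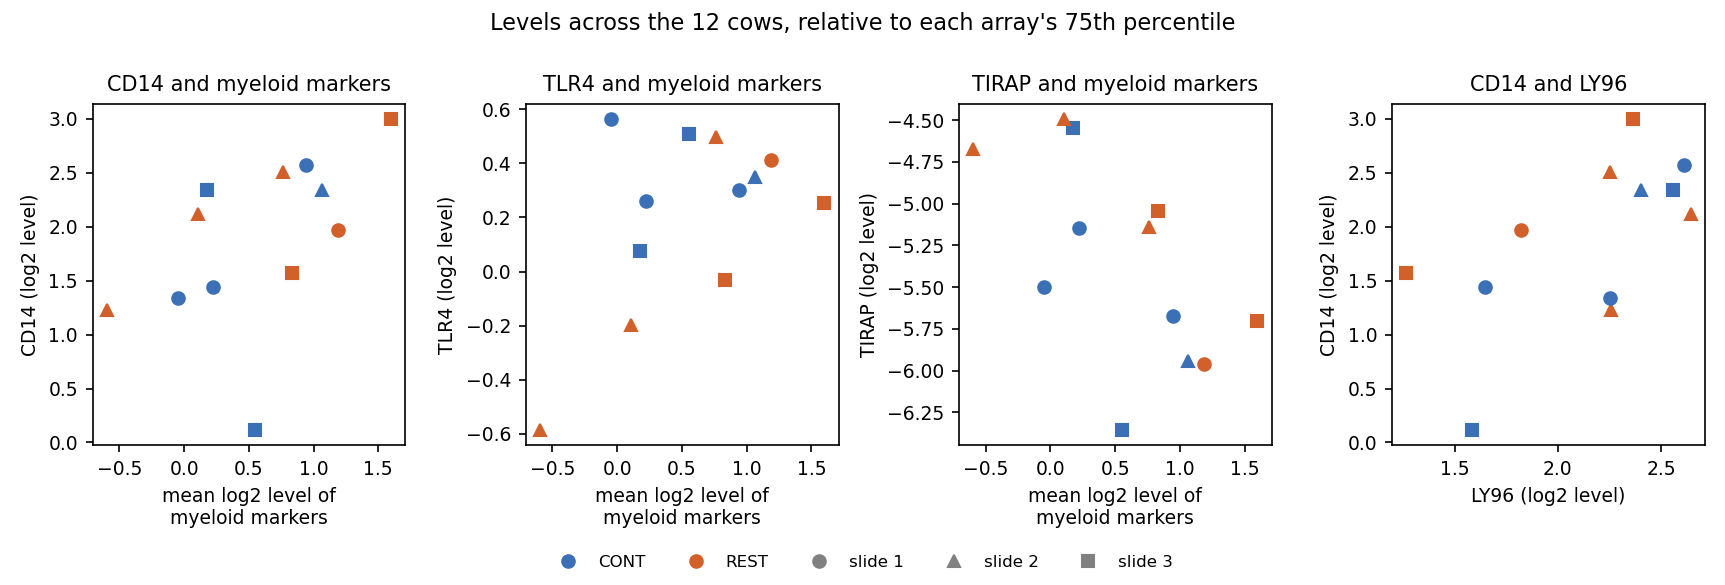
Levels (log2, relative to the array's 75th percentile) of CD14, TLR4 and TIRAP against the mean of 19 myeloid markers, and of CD14 against LY96, 1 point per cow, with color for diet and symbol for slide. REST cow 0049 is the lowest in myeloid mean (-0.60) and in TLR4, and CONT cow 8027 is the lowest in CD14 (0.12).

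By likeness of level over the 12 arrays, as a description among 9082 genes above background on all arrays, genes close to TLR4 were STMP1 (r = 0.92) and ABAT (r = 0.91). Closest to CD14 were RABIF (r = 0.96), ATOX1 (r = 0.94) and TOR2A (r = 0.93). All arrays of these correlations share slides and scaling.

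The wider pathway was described with 8 lists of 95 genes, of which 85 had a named probe. None passed the adjusted threshold, and 3 of 85 (3.53%) had an unadjusted p under 0.05 in limma, beside 2.64% of all named genes. All 3 were lower in REST, and 60 of the 85 (70.6%) had a lower mean there beside 56.5% of the named genes, with a median log2 difference of -0.10 beside -0.03. With slide as a block 47 of the 85 (55.3%) were lower, beside 47.6% of the named genes, with a median of -0.02 beside 0.01, and without slide 2 it was 35 of 85. With slide as a block, none of these 3 was under 0.05 (limma estimates of -0.48, SE 0.24, for PTGS2, -0.55, SE 0.27, for IL1A and -0.31, SE 0.16, for CYLD), and 1 of the 85 was, CCL5, higher in REST (0.98, SE 0.40).

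The outputs of the MYD88 route had lower means in REST for 13 of 14 genes, with a median difference of -0.21 and 2 with an unadjusted p under 0.05. With slide as a block 7 were lower and 7 higher (median -0.0021), and without slide 2, 6 of 14 were lower. PTGS2, the inducible prostaglandin synthase, had levels of -4.07, -3.41 and -2.55 in CONT and of -5.02, -4.11 and -3.41 in REST, where 6 of 6 cows lay under the mean of CONT although the ranges overlapped. Its difference was -0.80 (SE 0.29, unadjusted limma p = 0.0179, exact permutation p = 0.026). IL1A, an alarm cytokine, differed by -0.77 (SE 0.30, unadjusted limma p = 0.0218, exact permutation p = 0.0173), from a probe above background on 5 CONT and 3 REST arrays. SOD2, the mitochondrial superoxide dismutase, differed by -1.24 (SE 0.67), with REST cows between 1.58 and 6.12 and CONT cows between 5.36 and 6.74. TNF differed by -0.90 (SE 0.52), and the neutrophil growth factor CSF3 was the 1 gene with a higher mean (0.97, SE 0.55). The cytokine IL1B differed by -0.04 (SE 0.31) and the neutrophil attractant CXCL8 by -0.19 with an SE of 0.73, too wide to resolve a change, and IL6 was above background on 1 array of each group. CCL20 was above background on no array. The blocked difference was -0.81 (SE 0.71) for SOD2, -0.56 (SE 0.55) for TNF and 0.54 (SE 0.49) for CSF3, and the direction turned for IL1B (0.02, SE 0.33) and CXCL8 (0.20, SE 0.80).

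The outputs of the TRIF route were lower in mean for 6 of 8 genes (median -0.19, none with an unadjusted p under 0.05), and for 5 with slide as a block (median -0.18). The chemokine CXCL10 differed by -0.21 (SE 0.27), whereas CCL5, which attracts T cells, differed by 0.65 (SE 0.41). Among the 15 negative regulators, 9 had a lower mean (median -0.02), and 8 with slide as a block (median -0.01). CYLD, a deubiquitinase that restrains NF-κB, had levels of -1.11, -0.82 and -0.62 in CONT and of -1.50, -1.24 and -0.94 in REST, with 6 of 6 REST cows under the mean of CONT (difference -0.38, SE 0.15, unadjusted limma p = 0.0222, exact permutation p = 0.00866). IL1RL1, a receptor gene of the interleukin-1 family, differed by 0.38 (SE 0.22) and the NF-κB inhibitor NFKBIA by -0.37 (SE 0.28). TOLLIP (0.02, SE 0.14) and SIGIRR (-0.00497, SE 0.18) differed by less than their error (-0.02, SE 0.16, and -0.11, SE 0.19, with slide as a block), and IRAK3 and TNFAIP3 were above background on 2 and 1 arrays per group.

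In the kinase and ubiquitin relay, 9 of 15 genes had a lower mean (median -0.10), and 8 with slide as a block (median -0.04). NFKB1, a subunit of NF-κB, differed by -0.36 (SE 0.19, and -0.24, SE 0.19, with slide as a block) and TAB3, which couples TRAF6 to the kinase TAK1, by 0.49 (SE 0.26). IRAK2 differed by 0.19 (SE 0.18) and the ubiquitin ligase TRAF6 by -0.10 (SE 0.14). Of the TRIF branch, 8 of 10 genes were lower in mean (median -0.12, range -0.26 to 0.05), and 7 with slide as a block (median -0.07). Among 10 genes of LPS binding and handling, 6 were lower (median -0.06), and 3 with slide as a block (median 0.06). LBP differed by -0.28 (SE 0.65) and by 0.30 (SE 0.63) with slide as a block, the intracellular LPS sensor CASP4 by -0.32 (SE 0.19, and -0.20, SE 0.20, with the block) and the neutrophil LPS-neutralizing protein BPI by 1.12 (SE 0.67, and 1.32, SE 0.74, with the block). For BPI the REST cows lay between -2.60 and 1.95 (median -1.18) and the CONT cows between -3.31 and -0.56 (median -1.99). The 6 genes of receptor folding and traffic were split 3 and 3, with differences between -0.18 and 0.04. Of 7 other toll-like receptors, 6 were lower in mean, and TLR6, the partner of TLR2, was the exception at 0.60 (SE 0.30, with 5 CONT cows because 1 spot was marked as an outlier). With slide as a block 5 of the 7 were lower (median -0.10), and TLR6 differed by 0.57 (SE 0.34). Only 3 of the 7 were above background on all 12 arrays.

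**Figure D5:**
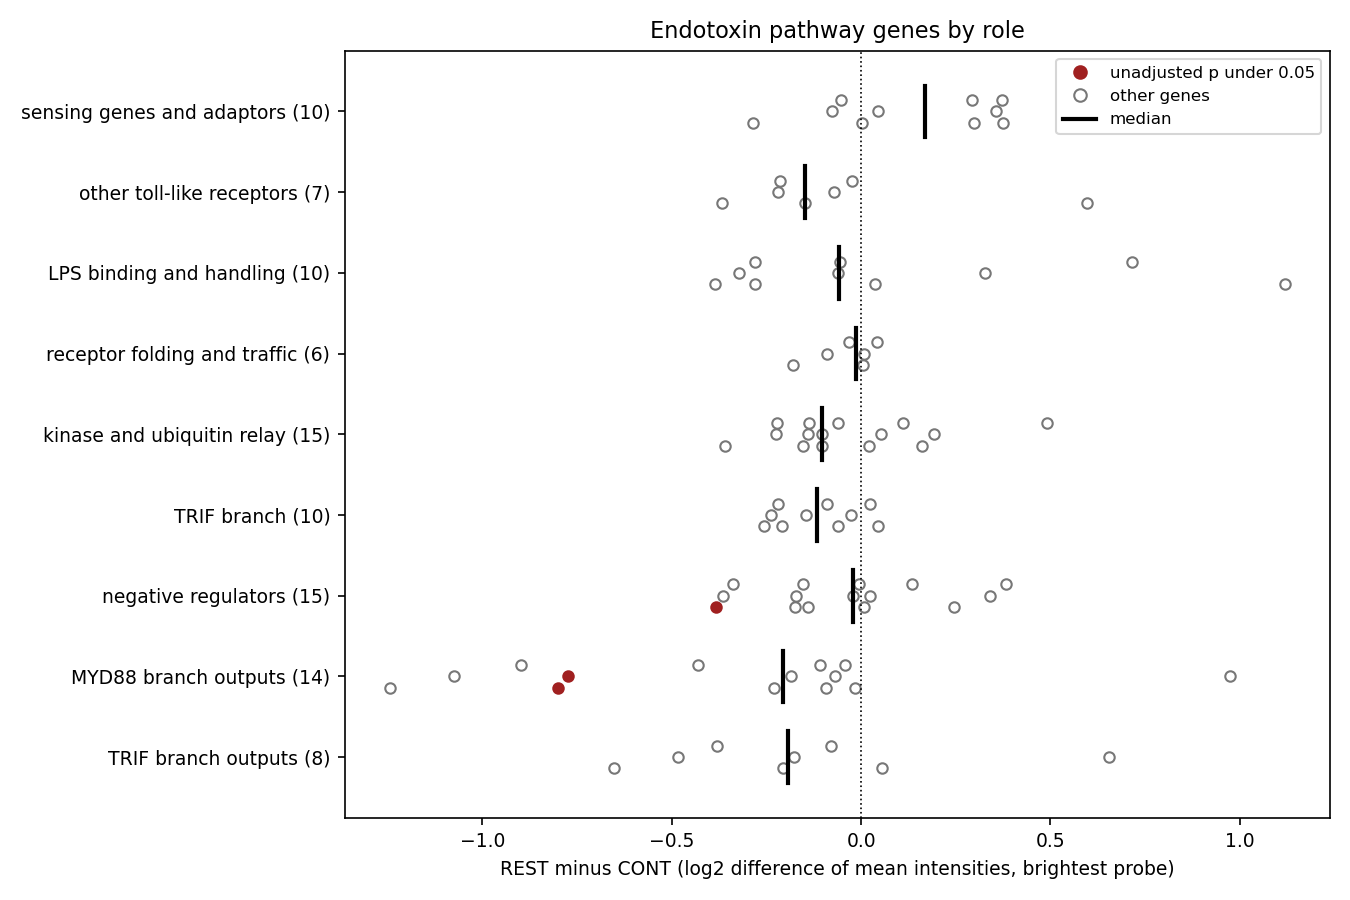
REST minus CONT difference (log2, brightest probe) of the 10 sensing genes and of the 85 pathway genes by role, with the number of genes in parentheses and the median of each list as a bar. Filled points are the 3 genes with an unadjusted p under 0.05 (PTGS2, IL1A and CYLD), all below 0, and none passed the adjusted threshold; CCL20 (MYD88 branch outputs) and TIRAP are drawn at their measured values although not well above background.

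Markers of the cells that could carry these genes did not stand apart by diet at the adjusted threshold. The counts that follow stand beside 2.64% of all named genes with an unadjusted p under 0.05 and 56.5% with a lower mean in REST. The summed level of 10 neutrophil markers (log2 of the summed relative intensities) was 4.53 to 7.51 in CONT and 3.59 to 7.65 in REST, with 7 of 10 genes higher in mean. That of 9 monocyte and macrophage markers was 4.92 to 5.58 and 4.02 to 5.76, with 5 of 9 higher, and that of 6 leukocyte markers 4.79 to 5.97 and 3.87 to 6.16, with 2 of 6 higher, and 4 of 6 with slide as a block (median -0.08 without it and 0.03 with it). Luminal epithelium spanned 10.01 to 11.51 and 10.45 to 11.96, with 7 of 9 higher. Of these defining markers, PTPRC differed by -0.34 (SE 0.34), S100A8 by 0.31 (SE 0.94), CSF1R by -0.35 (SE 0.39), CD68 by 0.07 (SE 0.49), KRT18 by -0.49 (SE 0.57) and LALBA by 0.19 (SE 0.58). In the fit with slide as a block, S100A8 differed by 0.53 (SE 1.03), CSF1R by -0.19 (SE 0.43), CD68 by 0.26 (SE 0.55), KRT18 by -0.28 (SE 0.62) and LALBA by -0.15 (SE 0.55). Endothelial markers were higher in mean for 6 of 6 genes (median 0.52, 1 with an unadjusted p under 0.05, VWF), with summed levels of 1.39 to 3.49 in CONT and 3.15 to 3.92 in REST. Fibroblast markers were lower for 6 of 7 (median -0.60, 3 with an unadjusted p under 0.05, LUM, COL1A1 and COL1A2; median -0.31 with slide as a block), with summed levels of 5.63 to 6.06 and 4.52 to 6.12. T cell, B cell, myoepithelial and adipose markers had median differences of -0.06, 0.13, -0.20 and 0.25 (0.02, 0.03, -0.22 and 0.36 with slide as a block), with 1 T cell gene (CD3D, 0.60) and 1 B cell gene (MS4A1, above background on no CONT array) higher in REST at an unadjusted p under 0.05. With slide as a block, LUM (-0.83, SE 0.28), VWF (0.90, SE 0.32) and MS4A1 stayed under 0.05, COL1A1 (-0.39, SE 0.28), COL1A2 (-0.45, SE 0.27) and CD3D (0.50, SE 0.30) did not, and 2 other markers came under it. These were CD163 of macrophages, higher in REST (1.09, SE 0.43), and OXTR of the myoepithelium, lower (-0.74, SE 0.23). Without the block CD163 differed by 0.85 (SE 0.41) and OXTR by -0.50 (SE 0.25). These 8 marker genes are named after their values were seen. The part of these markers in the differences of the sensing genes was not tested.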

How the data were processed

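Total RNA from MG biopsies of 12 cows was labeled with Cy3 and hybridized by the authors to one-color Agilent arrays. The deposited intensities are spot signals that the authors extracted and background-corrected with Agilent Feature Extraction 11.0.1.1, not normalized between arrays. The deposited value table is identical to these signals (maximum difference 0). The genome build of the array annotation is not that of the RefSeq table, so no positions or sequences are given.

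Of 45220 spots, 43803 were not controls and represented 43653 probes. Spots marked as outliers were set to missing (none for the 20 probes of the sensing genes, each with 1 spot), the log2 of the 75th percentile was subtracted on each array, spots were averaged per probe, and no filter on dim probes was applied. A probe was named through its RefSeq accession without version, which left 16821 probes unnamed, and the brightest probe (highest mean) stood for a gene. REST and CONT (groups from the sample labels) were compared with limma 3.58.1 in R 4.3.3 (lmFit and eBayes, two-sided, Benjamini-Hochberg over all probes, threshold 0.05), the intervals are limma's, and the procedure was tested on simulated data. For single probes, exact permutation tests ran through every assignment of 6 and 6 cows, and correlations were tested with 100000 permutations (exact within a group) in SciPy 1.17.1. The myeloid mean used 19 markers with outlier spots kept.

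Alternatives were Westfall-Young adjustment, quantile normalization, scaling by the median, normexp (offset 50, on the median spot signal), a filter on dim probes, outlier spots kept, slide as a block, an intensity trend, array weights, other probes of a gene, and each cow left out. Leaving out slide 2 or TIRAP, the next brightest probe of TLR2 the relations between probes of a gene and the counts of lower means in the lists under each alternative were added after values were seen. The genes named are the 10 sensing genes with all probes, of the pathway lists the 12 with the lowest unadjusted p and the direct partners and outputs of the route, the 3 most like TLR4 and CD14 (1 of them is not reported here), and defining markers. Genes and lists were chosen with earlier results of these data known.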

Additional observations from a re-analysis of the deposited data

Results flagged for a closer look

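In each group of 6 cows, the lowest and the highest value of each of the 20 probes were compared with the nearest other cow by Dixon's criterion at the 95% level. Of 40 groups, 2 held a cow that stood apart, and chance gives about 2 of 40. For TLR2 probe 1, REST cow 1058 was the lowest of its group at 7.38, against 8.38 for the next cow and 8.85 for the highest. Without this cow the TLR2 difference was 0.57 in place of 0.38. The same cow had the highest myeloid mean (1.60) and the highest CD14 (3.00). For the other TICAM2 probe, CONT cow 1024 was the lowest at -4.545, against -3.47 for the next cow, on the 1 array of 12 where this probe was not well above background. Without this cow the difference of that probe was -0.0055 in place of 0.23.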

How the results depend on the processing

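No sensing gene passed an adjusted p of 0.05 in limma under any of the 25 alternatives, Westfall-Young adjustment included (lowest member p 1, lowest of any probe 0.3, over 100 assignments of the cows). At an unadjusted p under 0.05, the count of 0 of 10 became 1 with the next brightest probe of TLR2, and 0 to 1 when each cow was left out in turn (TICAM2 without REST cow 0078, and TLR2 without REST cow 1058). The count of genes with a higher mean in REST, 7 of 10, was 4 without slide 2 and 4 of 9 with the mean over probes well above background on all arrays (TIRAP drops out), 5 to 9 when a cow was left out, and 6 of 9 without TIRAP, where the median difference was 0.044. The count of pathway genes under an unadjusted p of 0.05, 3 of 85, was 1 with slide as a block (CCL5), 5 with array weights and 2 to 6 when a cow was left out (6 without REST cow 1018, 5 without CONT cow 9040 or REST cow 1058). The count of pathway genes with a lower mean in REST, 60 of 85, was 47 with slide as a block, 35 without slide 2, 71 with scaling by the median and 47 to 65 when a cow was left out. That of the MYD88 outputs, 13 of 14, was 7 with slide as a block, 6 without slide 2, 8 of 8 with the mean over probes well above background on all arrays and 8 to 13 when a cow was left out (8 without REST cow 0049). The 15 relations across cows gave 0 past the adjusted threshold in all 17 alternatives. TLR4, CD14 and TICAM2 kept the direction of their brightest probe in all 24 alternatives run for each, with ranges of -0.37 to -0.060, 0.058 to 0.62 and 0.016 to 0.37. Some of the 24 could not turn it. The filter on dim probes, kept outlier spots, the intensity trend and TLR2's next brightest probe left these differences unchanged.

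The direction turned in 26 of 216 alternatives over 9 genes. Not all of the 216 could turn it, because the filter on dim probes, kept outlier spots and the intensity trend left every difference unchanged. So did TLR2's next brightest probe for the other genes, and the means over probes for genes with a single probe. The share of 26 in 216 is therefore no measure of stability. TLR2 was -0.40 with the mean over all probes or over those above background, and -0.75 by its next brightest probe. IRAK1 was -0.019 without slide 2. MYD88 was -0.012 with scaling by the median and -0.039 to 0.10 when a cow was left out. IRAK4 was -0.054 with the median, -0.017 with slide as a block, -0.027 with both means over probes, -0.087 without slide 2 and -0.038 to 0.047 when a cow was left out. When a cow was left out, LY96 was -0.20 to 0.089 and TICAM1 -0.23 to 0.090. The cause was not tested. The median of all probes was -0.02 in the reported scaling, -0.02 with quantile normalization, -0.08 with the median and -0.04 with normexp.

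No paired analysis was possible because the labels give the same replicate number to all 12 cows. Scan date could not be told apart from slide and was not run separately, nor was the authors' value table, which holds the same intensities. The number of arrays limits the precision, and TIRAP, IL6, IRAK3, TNFAIP3 and CCL20 are near background.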
